A study of Mus musculus with 2 samples.

Results

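The loci described here are the microRNA gene Mir210, a classical target of the hypoxia response, and the miR-34 loci Mir34a, Mir34b and Mir34c, which the p53 protein induces. They were taken by symbol, after matching the Ensembl IDs of the deposited tables to GENCODE M21, and all 4 were found among the 1973 microRNA genes counted. The material was whole liver from B6NCrl mice, a C57BL/6N strain, taken at embryonic day 14.5, when this organ holds immature hepatocytes and makes most of the red cells of the embryo. The labels name no treatment and no mutant allele. They give 1 group with 2 libraries, biological replicates 1 and 2, called the 2 livers below. The labels describe a single liver per sample, collected on different days, yet also pooled male and female tissue and the same donor ID, and it is therefore unclear whether they come from independent animals. In bulk tissue, fewer cells of a type and less RNA per cell cannot be told apart.

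MicroRNAs are cut from a hairpin precursor as strands of the 5p or 3p arm, and bases 2 to 8 of the strand, the seed, pair with the target messenger RNAs. Under low oxygen, hypoxia-inducible factors switch on Mir210, whose product lowers iron-sulfur cluster assembly and mitochondrial respiration, and the same microRNA rises during red cell maturation. After DNA damage and other stresses, p53 binds the promoters of Mir34a and of the shared Mir34b and Mir34c transcript, and their products lower cell cycle and survival proteins such as Cdk4, Cdk6, Met and Bcl2. The miR-34 seed is shared with the miR-449 microRNAs, and both families are known for their part in building multiciliated cells.

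The mature sequences from RefSeq (GRCm38.p6) show why Mir210 and the miR-34 loci are treated as separate families, and which other loci share a seed with them. In the lines below the seed is in capitals, and every sequence runs 5′ to 3′.
miR-210-3p: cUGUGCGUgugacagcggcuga
miR-210-5p: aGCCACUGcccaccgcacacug
miR-34a-5p: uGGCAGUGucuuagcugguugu
miR-34b-5p: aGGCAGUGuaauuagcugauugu
miR-449a-5p: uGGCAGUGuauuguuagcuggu
miR-449c-5p: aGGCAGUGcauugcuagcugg
miR-34b-3p: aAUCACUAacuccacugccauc
miR-34c-3p: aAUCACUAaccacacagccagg
The seed UGUGCGU of miR-210-3p occurred in no other of the 1738 mature sequences of the table. The seed GGCAGUG occurred in 4 of them, from Mir34a, Mir34b, Mir449a and Mir449c. The strands miR-34c-5p and those of Mir449b were not analysed here, so nothing follows from this count about the seeds of Mir34c and Mir449b. Outside the seed these strands diverge. Compared base by base from the 5′ end, miR-34a-5p and miR-449a-5p were identical at 15 of 22 positions and differed by C10A, A13G, G14U, C15U, U16A, G18C and U20G, where the first letter is the base of miR-34a-5p. The 3p strands of Mir34b and Mir34c share the seed AUCACUA, found in these 2 sequences alone, and were identical at 17 of 22 positions.

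The hairpins are shown because the deposited counts cover a whole hairpin and do not separate its arms. In the lines below, capitals mark the mature strands.
Mir210: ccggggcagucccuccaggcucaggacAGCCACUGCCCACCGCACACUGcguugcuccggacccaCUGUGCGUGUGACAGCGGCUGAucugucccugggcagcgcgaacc
Mir34a: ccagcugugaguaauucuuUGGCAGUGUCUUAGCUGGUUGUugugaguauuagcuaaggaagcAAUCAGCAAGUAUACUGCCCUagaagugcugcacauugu
Mir34b: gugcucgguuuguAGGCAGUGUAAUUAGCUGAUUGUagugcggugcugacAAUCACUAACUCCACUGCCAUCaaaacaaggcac
The Mir210 hairpin is rich in G and C (69.1%), compared with 44.1% for Mir34a and 47.6% for Mir34b. No member shared a run of more than 12 bases with any of the 1893 other microRNA hairpins compared, and the longest run between Mir34b and Mir34c was 11 bases. No RefSeq mature strand of these loci was identical to one of another locus. Reads that map to more than 1 place were left out of the gene counts, and these hairpins thus had no near-identical copy among the hairpins compared.

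In the coordinates of GRCm38 (mm10), Mir210 (ENSMUSG00000065551) lies on chromosome 7 from 141221384 to 141221493 on the minus strand. It overlaps no other annotated gene and lies 2725 bases from Rassf7 and 7290 bases from Phrf1. Mir34a (ENSMUSG00000065493) lies on chromosome 4 from 150068454 to 150068555 on the plus strand. It overlaps the provisional gene Gm37795 by 17 bases, at an exon on the same strand. Mir34b (ENSMUSG00000065492) lies on chromosome 9 from 51103562 to 51103645 and Mir34c (ENSMUSG00000065587) from 51103034 to 51103110, both on the minus strand and 451 bases apart. The pair sits opposite an intron of Btg4, a protein-coding gene on the other strand.

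The question for this tissue was how much of the hypoxia-induced and of the p53-induced microRNAs it held, and how alike the livers were in this respect. Mir210 was by far the most abundant of the 4 loci in both livers, Mir34c and Mir34a were about an order of magnitude lower, and Mir34b was close to the lower limit of detection. Levels are counts scaled to the library total (CPM), here the total of same-strand microRNA gene counts, 2353946 in replicate 1 and 3132763 in replicate 2. In single libraries a level is followed by its 95% Clopper-Pearson interval. These intervals cover counting error only, since reads amplified by PCR are not independent molecules.

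Mir210 had 2208 counts in replicate 1 and 2706 in replicate 2. That is 938.0 CPM (899.3 to 977.9) and 863.8 CPM (831.5 to 896.9), with a mean of 900.9 ± 52.5 CPM (SD, n = 2). Its rank among the 1973 genes was 94 and 101, above most of the 332 genes that reached 10 counts in both libraries and whose median level was 172.6 CPM. It made up 0.0938% and 0.0864% of all counts.

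Mir34c had 215 and 335 counts, or 91.3 CPM (79.5 to 104.4) and 106.9 CPM (95.8 to 119.0), with a mean of 99.1 ± 11.0 CPM (SD, n = 2). It held rank 198 and 187. Mir34a had 137 and 199 counts, or 58.2 CPM (48.9 to 68.8) and 63.5 CPM (55.0 to 73.0), with a mean of 60.9 ± 3.76 CPM and ranks 208 and 205. Both loci were below that median. The lower of the Mir34c values was above the higher of the Mir34a values, so the livers did not overlap.

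Mir34b had 10 counts in replicate 1, exactly the minimum for the comparison of the livers, and 20 counts in replicate 2. These are 4.25 CPM (2.04 to 7.81) and 6.38 CPM (3.90 to 9.86), with a mean of 5.32 ± 1.51 CPM (SD, n = 2) and ranks 337 and 305. The limit that 0 counts would leave, taken as 3 counts, is 1.27 and 0.958 CPM in the respective libraries. Mir34b was therefore detected in both livers, but its level was known to no better than a factor of several.

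**Figure D1:**
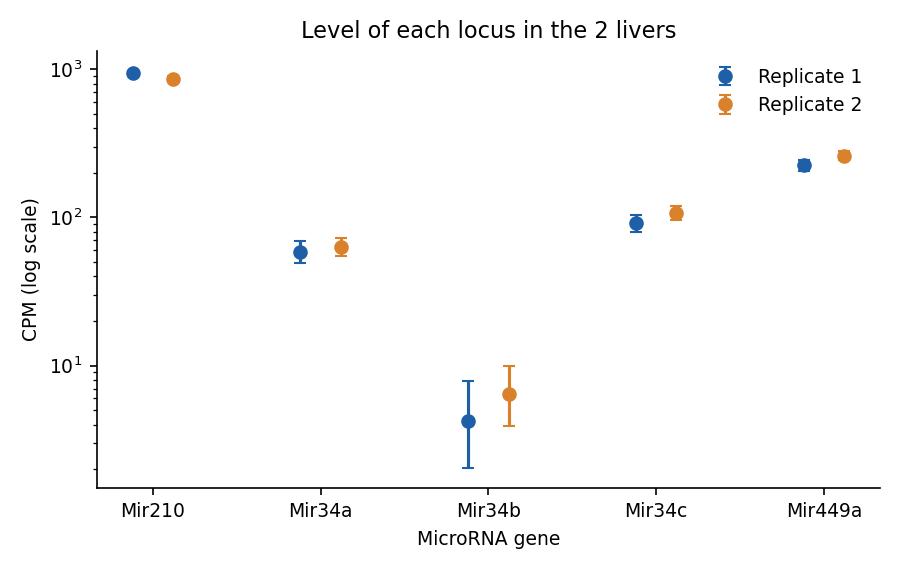
Level of each locus in CPM (log axis) in replicate 1 (blue) and replicate 2 (orange), with 95% Clopper-Pearson intervals as bars. Mir210 lies near 900.9 CPM in both livers, and the miR-34 loci lie between 4.25 and 106.9 CPM with the order Mir34c, Mir34a, Mir34b in each; Mir449a, which has the miR-34 seed, is above all 3.

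**Figure D2:**
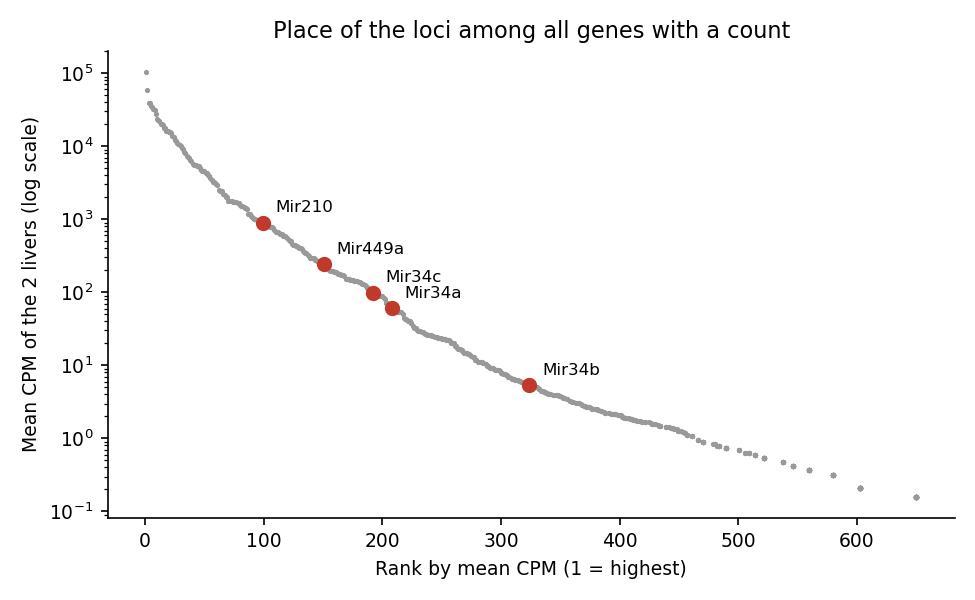
Mean CPM of the 2 livers (log axis) against rank for every gene with a count, grey points, and the named loci in red. By mean level Mir210 is at rank 99, Mir34c at 192, Mir34a at 208 and Mir34b at 324.

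The order Mir210, Mir34c, Mir34a, Mir34b was the same in both livers, also per base of the annotated hairpin. Per base, Mir210 had 8.53 and 7.85 CPM, Mir34c 1.19 and 1.39 CPM, Mir34a 0.571 and 0.623 CPM, and Mir34b 0.0506 and 0.0760 CPM. A microRNA read covers a whole mature strand, so the main comparison used the counts themselves, and both scales are given in what follows. How evenly strands of different sequence were recovered was not measured, so ratios between loci are ratios of reads. No counts fell on the opposite strand of any of the 4 loci in either library. For Mir210 this allows an opposite-strand share of up to 0.136% in replicate 1 and 0.111% in replicate 2. Pooled over all genes that share was 9.60% and 10.2%. It came from only 61 genes in replicate 1 and 56 in replicate 2, of 1973, so most genes likewise had no opposite-strand counts.

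The counts of Mir210 exceeded those of each miR-34 locus in both livers, and those of the 3 loci together. Against the sum of the miR-34 loci, which had 362 counts in replicate 1 and 554 in replicate 2, Mir210 was 6.10-fold higher (95% exact interval 5.46 to 6.84) and 4.88-fold higher (4.46 to 5.36). Per hairpin base these ratios were 4.72 and 3.76. Against Mir34c, the highest miR-34 locus, the ratio of counts was 10.3 (8.92 to 11.9) in replicate 1 and 8.08 (7.21 to 9.08) in replicate 2, or 7.19 and 5.65 per hairpin base. Mir34c thus came nearest to Mir210 on either scale.

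Against Mir34a the ratio of counts was 16.1 (13.6 to 19.3) and 13.6 (11.8 to 15.8), or 14.9 and 12.6 per hairpin base. Against Mir34b it was 220.8 (119.8 to 461.1) and 135.3 (87.4 to 221.9), or 168.6 and 103.3 per hairpin base, with wide intervals because Mir34b had few counts. None of these intervals includes a ratio of 1. With 2 livers, an exact sign-flip test over livers, two-sided, cannot go below p = 0.50, so the intervals describe counting within each library and not the spread between animals. Mir210 made up 85.9% (84.5 to 87.2) of the counts of the 4 loci in replicate 1 and 83.0% (81.7 to 84.3) in replicate 2.

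The miR-34 loci differed widely among themselves, also where they lie side by side. Mir34c had 21.5 times the counts of its neighbour Mir34b in replicate 1 (11.5 to 45.5) and 16.75 times in replicate 2 (10.7 to 27.8), or 23.5 and 18.3 per hairpin base. Mir34a, on another chromosome, had 13.7 times the counts of Mir34b (7.23 to 29.2) in replicate 1 and 9.95 times (6.27 to 16.6) in replicate 2. Mir34c exceeded Mir34a by a smaller margin, with a ratio of 1.57 (1.26 to 1.96) and 1.68 (1.41 to 2.02), or 2.08 and 2.23 per hairpin base. The share of the miR-34 counts that came from Mir34c was 59.4% (54.1 to 64.5) in replicate 1 and 60.5% (56.3 to 64.6) in replicate 2. Mir34a gave 37.8% (32.8 to 43.1) and 35.9% (31.9 to 40.1), and Mir34b 2.76% (1.33 to 5.02) and 3.61% (2.22 to 5.52). For each locus the intervals of the livers overlapped, so no difference in this composition was detectable at this depth.

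Among the loci that share the miR-34 seed, Mir449a was the highest. It lies on chromosome 13 from 113037534 to 113037624, in an intron of Cdc20b on the same strand, with Mir449b and Mir449c as neighbours in that gene. Mir449a had 530 counts (225.2 CPM) in replicate 1 and 814 counts (259.8 CPM) in replicate 2, with a mean of 242.5 ± 24.5 CPM (SD, n = 2). It exceeded Mir34c by 2.47-fold (2.10 to 2.90) and 2.43-fold (2.14 to 2.77), or 2.09 and 2.06 per hairpin base. It also exceeded Mir34a by 3.87-fold (3.20 to 4.70) and 4.09-fold (3.50 to 4.80), and all 3 miR-34 loci together by 1.46-fold (1.28 to 1.68) and 1.47-fold (1.32 to 1.64). These comparisons with Mir449a were added to those planned.

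The other Mir449 genes were near the limit of detection. Mir449b had 0 counts in replicate 1 and 3 in replicate 2, and Mir449c had 3 and 0. Mir449a therefore made up 99.4% (98.4 to 99.9) and 99.6% (98.9 to 99.9) of the counts of its cluster. In both clusters, that of Mir34b and Mir34c and that of the Mir449 genes, 1 hairpin supplied nearly all counts. Of the fixed markers of multiciliated epithelium, Mir449a and Mir449c, the first was thus present and the second at or under 3 counts, and their part in the miR-34 levels was not tested. The neural markers Mir124a-2 and Mir9-2 had 0 counts in both libraries, so their uniquely mapped reads were under the same limits of 1.27 and 0.958 CPM. Whether their mature strands also come from other loci was not checked. Reads of such strands would be left out, so these 0 counts do not show absence. Some other microRNAs of neural tissue, picked after their values were seen, were present and higher in replicate 1. Mir137 had 570 counts in replicate 1 and 70 in replicate 2 (10.8-fold by CPM), Mir219a-2 had 127 and 11 (15.4-fold), and Mir153 had 68 and 12 (7.54-fold). Not all such microRNAs differed this way, as Mir128-1 had 353 and 413 counts, a ratio of 1.14 with an interval (0.984 to 1.31) that includes 1. Nor were large shifts limited to them, since Mir10b had 14984 and 1826 counts (10.9-fold). The part of these neural microRNAs in the differences between the livers given below was not tested.

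**Figure D3:**
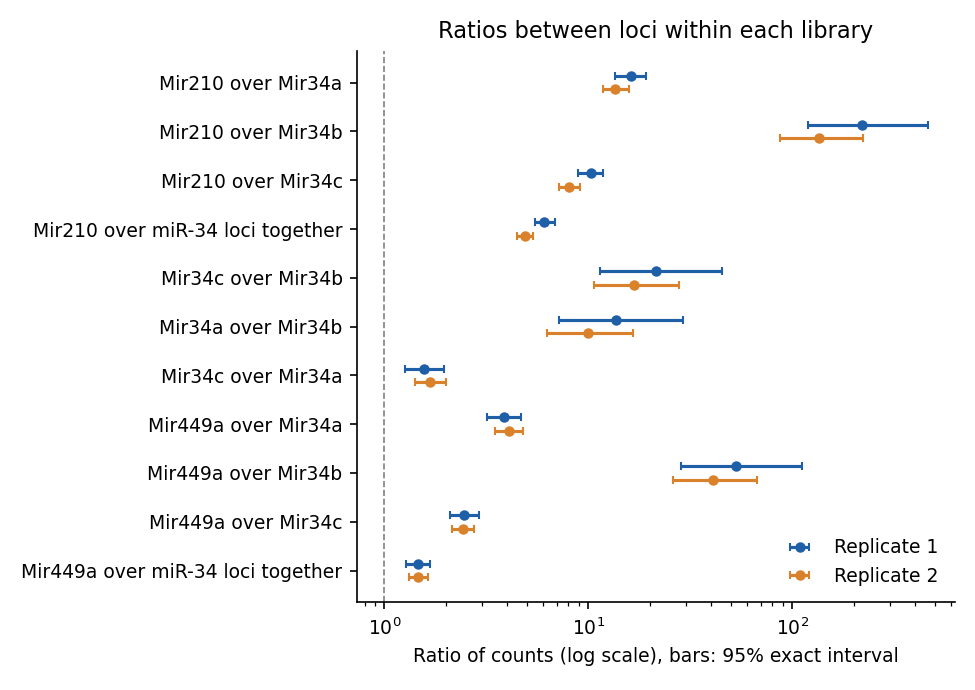
Ratio of counts between loci within replicate 1 (blue) and replicate 2 (orange) on a log axis, with 95% exact intervals as bars and a ratio of 1 as the dashed line. All 11 pairs lie above 1 in both livers, from 1.46 for Mir449a over the miR-34 loci together to 220.8 for Mir210 over Mir34b in replicate 1.

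Between the livers, Mir210 was slightly higher in replicate 1, whereas each miR-34 locus had the lower value there. The ratio of replicate 1 to replicate 2 for Mir210 was 1.09 (1.03 to 1.15 as the 95% exact interval), with an adjusted p of 0.0123 by the exact binomial test with Benjamini-Hochberg adjustment over the 332 genes. It was the only member of the 4 that passed. In this comparison 41.0% of all genes tested passed, 17.8% higher in replicate 1 and 23.2% higher in replicate 2, so 1 of 4 is no excess. The test compares these libraries, not conditions.

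For the miR-34 loci, the ratio of replicate 1 to replicate 2 was 0.916 for Mir34a (0.732 to 1.14, adjusted p = 0.634 by the exact test). It was 0.665 for Mir34b (0.278 to 1.49, adjusted p = 0.553 by the exact test) and 0.854 for Mir34c (0.716 to 1.02, adjusted p = 0.152 by the exact test). Each interval includes 1, and that of Mir34b allows a difference of more than 3-fold. For the 3 loci together the ratio was 0.870 (0.760 to 0.995), and for Mir34b and Mir34c together 0.844 (0.711 to 0.9996). Scaled to the library total, both sums were thus lower in replicate 1, with intervals that just exclude 1. The sums were not computed under other scalings. TMM scaling moved the ratio of Mir34c alone from 0.854 to 0.869, so such narrow exclusions of 1 may not hold there. The median absolute difference over the 332 genes was 1.12-fold (0.17 on the log2 scale). Genes with a larger absolute log2 ratio than the locus made up 61.1% of those tested for Mir210, 59.3% for Mir34a, 38.9% for Mir34c and 11.1% for Mir34b. The seed relative Mir449a was lower in replicate 1 with a ratio of 0.867 (0.775 to 0.968) and passed the exact test with an adjusted p of 0.0278.

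**Figure D4:**
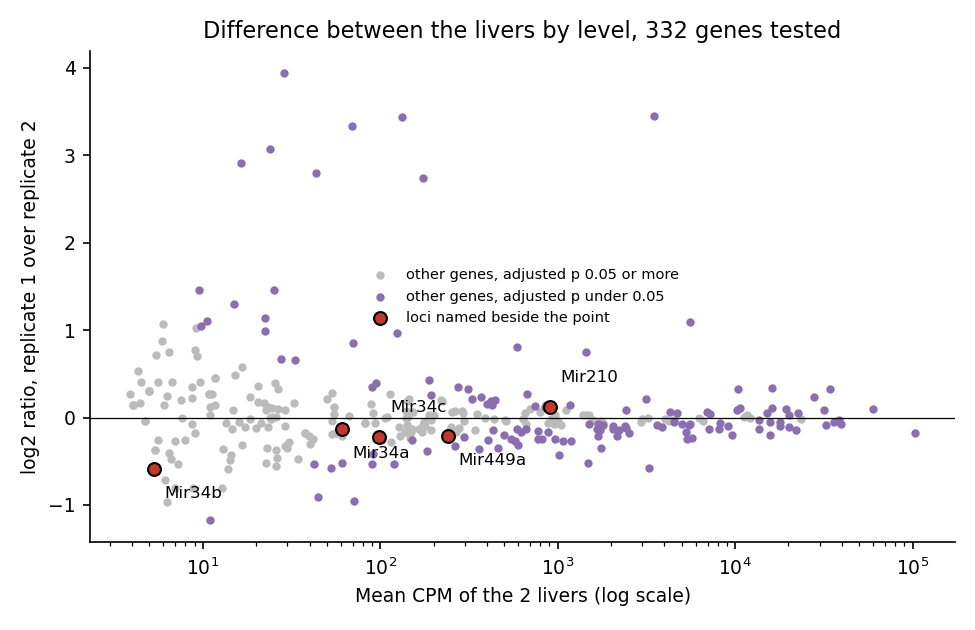
log2 ratio of replicate 1 to replicate 2 against mean CPM (log axis) for the 332 genes tested. Purple points passed the exact test at an adjusted p under 0.05, grey points did not, and red points are the named loci; Mir210 lies slightly above 0 at 0.12, and Mir34a, Mir34b, Mir34c and Mir449a lie below 0.

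The ratio of Mir210 to the miR-34 loci was higher in replicate 1 for each locus, but its interval left out 1 only for the sum and for Mir34c. The ratio to the 3 loci together was 1.25 times higher in replicate 1 than in replicate 2 (95% exact interval 1.08 to 1.45), a comparison that does not depend on how the libraries are scaled. The ratio to Mir34c was 1.27 times higher (1.06 to 1.53), which did not pass Fisher's exact test after Benjamini-Hochberg adjustment over the 11 pairs compared (adjusted p = 0.0541). For Mir34a the factor was 1.19 (0.941 to 1.50) and for Mir34b 1.63 (0.727 to 3.91), and both intervals include 1. Without Mir34c in the sum, a setting added after the data were seen, the factor was 1.22 and its interval, 0.974 to 1.52, includes 1. The intervals are not adjusted for the number of pairs. The ratio of Mir449a to the miR-34 loci together differed less between the livers, with a factor of 0.996 and an interval of 0.836 to 1.19.

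Markers of liver cells and red cells moved between the same libraries. Mir451a and Mir144, the red cell microRNAs, were 1.26-fold (1.25 to 1.27) and 1.25-fold (1.23 to 1.27) higher in replicate 1, in the same direction as Mir210. Their levels were 38020 and 30243 CPM for Mir451a and 11594 and 9272 CPM for Mir144. These 2 genes lie side by side on chromosome 11, on the same strand, and may not be independent markers. Mir122, the main hepatocyte microRNA, had 97349 and 110371 CPM, a ratio of 0.882 (0.877 to 0.887), in the same direction as the miR-34 loci and Mir449a. Mir223, of granulocytes and monocytes, was 1.06-fold higher in replicate 1 (1.04 to 1.08), with 10498 and 9885 CPM. The part of cell composition in the difference of Mir210 and the miR-34 loci was not tested.

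**Figure D5:**
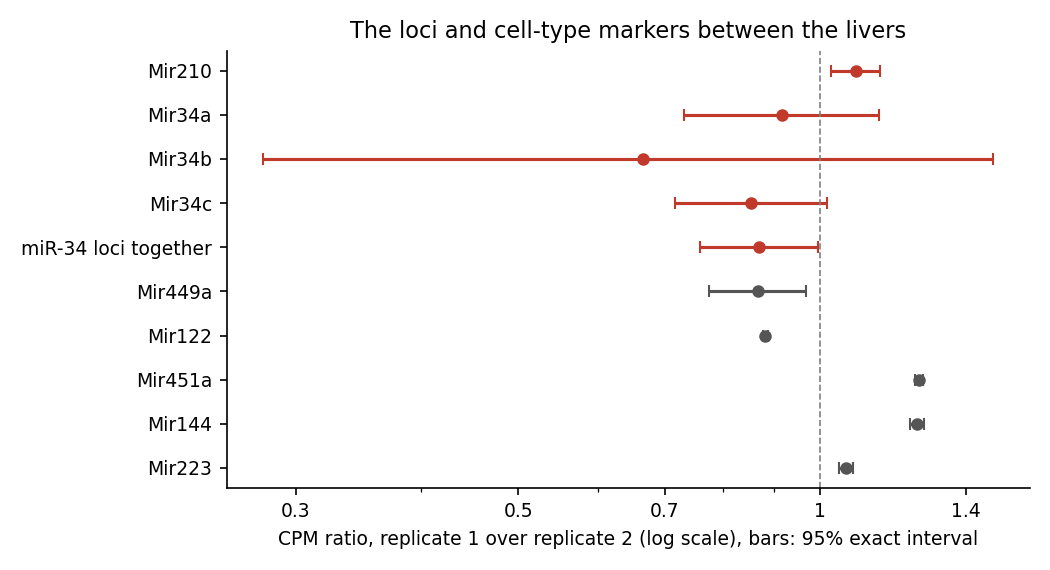
CPM ratio of replicate 1 to replicate 2 on a log axis, with 95% exact intervals as bars and a ratio of 1 as the dashed line, for the loci (red) and for Mir449a and cell-type markers (grey). Mir210, Mir451a, Mir144 and Mir223 lie above 1, and the miR-34 loci, Mir449a and Mir122 lie below 1.

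The genes nearest to each locus in level were found by the distance of log2(CPM + 1) over the 2 libraries, a likeness over 2 libraries only. For Mir210 they were Mirlet7f-2 (908.3 and 921.6 CPM) and Mir186 (897.6 and 815.3 CPM). Mirlet7f-2 shares its mature strand with Mirlet7f-1, so its counts of uniquely mapped reads are a lower limit. Mir34a was nearest to Mir669c (56.1 and 65.1 CPM) and Mir301b (53.1 and 60.0 CPM), and Mir34c to Mir200a (93.5 and 111.4 CPM) and Mir30c-2 (87.1 and 103.4 CPM). Mir30c-2 shares a mature strand with Mir30c-1, so its counts are a lower limit too. Mir34b was equally near to Mir201 and Mir6399, each with 11 and 19 counts.

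Other microRNAs reported as p53-induced were mostly far more abundant than the miR-34 loci. Of the 12 listed, 11 had a row and 10 reached 10 counts in each library, with a median of 2000 CPM. The highest were Mir143 (16236 ± 845.9 CPM), Mir15a (15136 ± 409.4 CPM) and Mir16-1 (7236 ± 143.9 CPM), whereas Mir141 (53.3 ± 5.03 CPM), Mir194-1 (16.7 ± 2.58 CPM) and Mir215 (3.08 ± 0.154 CPM) were below Mir34a. Mir605 was not analysed here. Between the livers, the exact test called 3 of the 10 higher in replicate 1 (Mir143, Mir15a, Mir16-1) and 3 higher in replicate 2 (Mir192, Mir194-2, Mir107), and 4 did not pass. Over all 332 genes the same test called 41.0%, with 17.8% higher in replicate 1 and 23.2% higher in replicate 2. With a minimum of 100 counts in each library, which 9 of the 10 reached, it called 129 of 215 genes. The median log2 ratio of replicate 1 to replicate 2 was -0.07 for the 10, against -0.03 over all 332 genes.

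Mir210 was likewise low beside other microRNAs that have been linked to hypoxia. Of 10 listed, 8 had a row and 7 reached 10 counts in each library, with a median of 8098 CPM. The highest were Mir26b (38616 ± 494.1 CPM), Mir21a (27880 ± 3248 CPM) and Mir322 (19473 ± 894.8 CPM). Of the 7, only Mir155 (90.9 ± 18.6 CPM) was below Mir210. Mir24-1 and Mir424 were not analysed here, and Mir199a-1 had 0 and 2 counts. By the exact test 3 of the 7 were higher in replicate 1 (Mir21a, Mir181c, Mir322) and 4 in replicate 2 (Mir23b, Mir26b, Mir107, Mir155), with a median log2 ratio of -0.03. All 7 were thus called, against 41.0% of all genes tested (17.8% and 23.2% by direction). Counts of the 7 ran from 183 for Mir155 in replicate 1 to 122070 for Mir26b in replicate 2. Genes with more counts were called more often. With a minimum of 100 counts in each library, which all 7 reached, the test called 129 of 215 genes. The 41.0% is therefore too low a yardstick for these 7. Most of these genes have many known regulators, and Mir107 stands on both lists. Mir16-1, Mir194-1, Mir194-2 and Mir199a-1 share a mature strand with another locus, so their counts are lower limits.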

How the data were processed

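Small RNA from 2 samples of embryonic liver was sequenced, as 1 group of 2 libraries. The authors deposited 1 table per library with unnormalized read counts at microRNA genes. Per the labels, RNA was under 30 nucleotides and the build is mm10. The aligner and counter: not given in the sources used here. Counts on the gene's strand were used. Left out were rows without a gene (unmapped 18.6% and 17.7% of reads, mapped to more than 1 place 34.0% and 33.1%, in no gene 10.6% and 10.4%). Of 1973 IDs, 1894 matched GENCODE M21. CPM, Clopper-Pearson intervals, exact intervals of ratios, conditional exact (odds ratio) intervals for the change of a ratio between libraries, and the two-sided exact binomial test between libraries (smaller tail doubled, at least 10 counts in each library, Benjamini-Hochberg, threshold 0.05) were computed with SciPy 1.17.1. Scaling alternatives used edgeR 4.0.16 and DESeq2 1.42.0. The test between libraries and the ratio intervals were tried on simulated counts. These held counting error only, so spread between animals and PCR copies were not covered. The members, lists and tests were chosen with earlier results of these data known. Genes named in the text are the 4 loci, the 2 nearest to each in level, the 3 highest and the absent members of each list, the loci sharing a seed, and fixed markers. Others were named after their values were seen. Alternatives were counts regardless of strand, TMM and DESeq2 scaling, totals without the highest gene, other count minimums, hairpin length and leaving out a replicate.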

Additional observations from a re-analysis of the deposited data

How the results depend on the processing

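No paired analysis was possible because the libraries form a single group. Leaving out a replicate ends the comparison between livers, which then has no value. Most alternatives kept the direction and the side of the threshold, and none reversed a direction. The mean levels of Mir210 and Mir34a became 811.6 and 54.8 CPM with counts regardless of strand, which enlarge the totals. With totals that leave out Mir122, the highest gene, the means of Mir210, Mir34a and Mir34c became 1005 CPM, 67.9 CPM and 110.7 CPM. The factor between livers for Mir210 over the miR-34 loci was 1.22 without Mir34c, down from 1.25, and its interval then includes 1. Mir210 passed the exact test between livers under all 8 alternatives, with adjusted p from 0.00203 to 0.0431 and a ratio from 1.07 to 1.10. With a minimum of 100 counts Mir34b was not tested. Mir34b rests on 10 and 20 counts, so depth limits every statement on it.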
